A study of Homo sapiens with 6 samples.

Results

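The 10 androgen-repressed genes were chosen by name as genes that androgen lowers in LNCaP cells: ACKR3, BCHE, OPRK1, PEG3, CAMK2N1, DDC, MET, SERPINI1, UGT2B15 and UGT2B17. The choice was made with earlier results of these data known. All 10 were measured, among 12165 genes on the array, by 17 probe sets. Of these, 16 named 1 gene each, and 1 named both UGT2B17 and UGT2B15. LNCaP cells, an established line from a human prostate carcinoma, carry the androgen receptor and make prostate-specific antigen. By the labels, 3 cultures received 20 µM gedunin, a limonoid from neem and related trees, and 3 received the solvent DMSO. All were grown in RPMI with fetal bovine serum, exposed for 6 h, and hybridised as total RNA, 1 array per culture, to Affymetrix arrays. Arrays of a group are numbered as biological replicates. The limma p-values set the difference between groups against the spread between these replicates, moderated over all probe sets. No arm without serum or with added androgen was analysed here.

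The androgen receptor is a transcription factor that is switched on by testosterone and dihydrotestosterone, and HSP90 holds it in the state that can bind hormone. With hormone bound it raises genes such as KLK3 and lowers others, and the genes it lowers tend to be highest when hormone is scarce. The repressed set mixes cell-surface receptors, secreted and intracellular inhibitors, and enzymes. The last include the UGT2B enzymes, which attach glucuronic acid to androgens and so inactivate them.

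The array labelled DMSO 3 stood apart from the other 5, and the members are therefore compared between gedunin 1 to 3 and DMSO 1 and 2, with DMSO 3 given separately. Its Spearman correlation with the others across probe sets was 0.812 to 0.819, against 0.965 to 0.980 among the other 5. The summed intensity of 9 measured luminal prostate markers was 14235 to 14833 on gedunin arrays and 15352 to 15750 on DMSO 1 and 2, but 238 on DMSO 3. That of 10 measured leukocyte markers was 219 to 222 on gedunin arrays and 216 to 219 on DMSO 1 and 2, but 11865 on DMSO 3. The sum of 6 measured neuroendocrine markers was 216 to 225 on gedunin arrays and 211 to 215 on DMSO 1 and 2. By limma, 0 of the 10 leukocyte and 0 of the 6 neuroendocrine markers differed between gedunin and DMSO 1 and 2, also at an unadjusted p under 0.05. Of the 9 luminal markers 3 fell and 2 rose, with a median log2 difference of -0.26, and their part in the results below was not tested. The other 5 arrays thus carried the prostate markers of their label, and DMSO 3 did not. The array medians lay between 31.1 and 32.0. Values are intensities made with RMA by the submitters, on a linear scale. Differences are log2 intensity, gedunin minus DMSO, ± the moderated standard error of limma (n = 3 gedunin and 2 DMSO arrays), and "called" means a Benjamini-Hochberg adjusted p under 0.05 over all 22215 probe sets.

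With gedunin, 6 of the 10 genes fell and 0 rose, against 9.36% of all genes called lower and 8.24% called higher. The genes were chosen with earlier results of these data known, so these shares are given as description and not as a test. ACKR3, BCHE, OPRK1, PEG3, UGT2B17 and CAMK2N1 were the genes that fell, to between 55.6% (ACKR3) and 74.96% (CAMK2N1) of their DMSO level. DDC, MET, SERPINI1 and UGT2B15 were not called. At an unadjusted p under 0.05, 7 genes were lower and 0 higher. Over probe sets, 7 of 17 were called lower and 0 higher (7.91% and 7.37% of all probe sets). The median log2 difference was -0.47 over the 10 genes, where each gene is represented by its brightest probe set, and -0.017 over all genes. Nearly all members were well lit, since 9 of the 10 lay above the median intensity. Among all genes above the median, 15.1% were called lower and 13.4% higher, with a median of -0.064. Centring the arrays on GAPDH and ACTB called 7 members and 3139 genes lower and 652 genes higher, in place of 1139 lower and 1003 higher, and moved the median of all genes to -0.19. ACTB itself was called higher with gedunin before that centring (0.32 ± 0.09, limma adjusted p = 0.0347). None of the 10 reached a 2-fold fall, while 71 genes of the array did, and 129 genes called lower changed at least as far as ACKR3. In a culture, fewer cells that express a gene and less RNA per cell cannot be told apart.

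**Figure D1:**
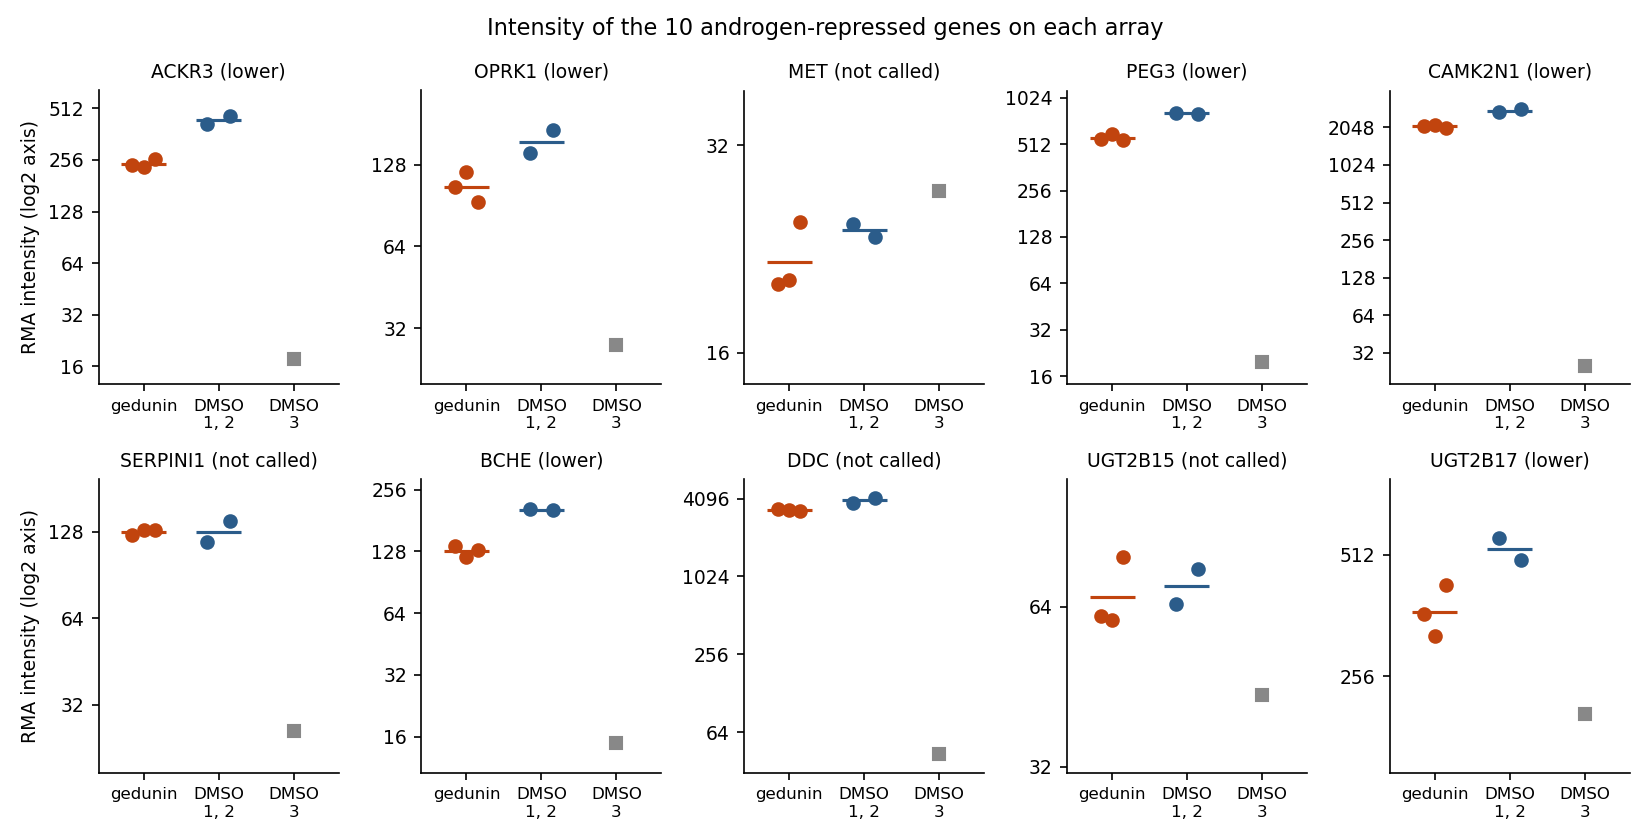
Intensity of each member gene (brightest probe set, log2 axis, scales differ between panels) on the 3 gedunin arrays, DMSO 1 and 2, and DMSO 3. Points are arrays and lines are group means of log2 values. For the 6 genes marked lower, every gedunin array lies below both DMSO 1 and DMSO 2, as for 23.5% of all probe sets. DMSO 3 is lowest for 9 of the 10 genes, MET being the exception.

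Promoters of 5 of the 10 genes were found in the RefSeq table (GRCh38.p14), each window running from 250 bases before to 50 after the start of transcription. They are shown for BCHE, which fell, and for UGT2B15, which was not called and was the 1 promoter of the 5 with a match to the motifs searched. The first lies at chr3:165837424-165837673 and the second at chr4:68670653-68670902, both on the minus strand, and the 250 bases before the start are printed. Capitals mark the matches.
BCHE: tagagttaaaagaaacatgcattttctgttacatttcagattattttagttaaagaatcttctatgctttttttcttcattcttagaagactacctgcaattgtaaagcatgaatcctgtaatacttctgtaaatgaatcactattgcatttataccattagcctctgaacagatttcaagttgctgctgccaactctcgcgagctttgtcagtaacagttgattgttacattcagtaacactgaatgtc
UGT2B15: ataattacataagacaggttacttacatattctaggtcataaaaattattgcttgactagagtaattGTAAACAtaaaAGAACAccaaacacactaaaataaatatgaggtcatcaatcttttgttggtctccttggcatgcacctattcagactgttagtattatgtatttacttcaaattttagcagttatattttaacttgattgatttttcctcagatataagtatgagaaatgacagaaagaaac

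The motifs were AGAACA, the core element bound by a single androgen receptor molecule, TGTTTAC of forkhead factors such as FOXA1, and AGATAA of GATA factors, each sought on both strands. UGT2B15 held AGAACA, beginning 172 bases before the start, and the reverse of the forkhead motif, GTAAACA, beginning 183 bases before it. The 2 matches do not overlap. BCHE, SERPINI1, MET and both DDC windows held 0 matches to the 3 motifs. Of all 35116 promoter windows in the table, 14.8% held AGAACA or its reverse, 3.42% the forkhead motif and 10.3% the GATA motif. A pair of these elements, AGAACA and TGTTCT 3 bases apart, occurred in 1 window of the table and in none of the members.

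The surface receptors came apart into 2 that fell and 1 without clear signal. ACKR3, an atypical receptor that binds the chemokines CXCL11 and CXCL12 and signals through arrestins, read 240, 234 and 258 on gedunin 1 to 3. It read 413 and 465 on DMSO 1 and 2. The groups did not overlap, and ACKR3 was the member that changed most. It fell by 0.85 ± 0.10 on the log2 scale (limma adjusted p = 0.000252), to 55.6% of the DMSO level. On DMSO 3 it read 17.6.

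OPRK1, the kappa opioid receptor for dynorphin peptides, read 106, 120 and 93.1 with gedunin, against 141 and 171 on DMSO 1 and 2. All gedunin arrays lay below both DMSO arrays, with gedunin 2 nearest to DMSO 1. It fell by 0.55 ± 0.13 (limma adjusted p = 0.0150). That call was lost without DMSO 2, where the difference was -0.41 (limma adjusted p = 0.163). On DMSO 3 OPRK1 read 27.9.

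MET, the receptor tyrosine kinase for hepatocyte growth factor, was dim on each of its 4 probe sets. Across these probe sets the gedunin arrays read 16.6 to 24.9 and DMSO 1 and 2 read 18.97 to 24.6, all below the array medians. The log2 differences were 0.054, -0.054, -0.15 and -0.085, none of them called. The widest of the 95% intervals ran from -0.40 to 0.090. DMSO 3, at 20.6 to 28.4, reached at most 129% of the level of DMSO 1 and 2 on a MET probe set. Where RMA intensities sit this low, folds are compressed, so a change of MET was not detectable here and its absence was not shown.

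PEG3 is an imprinted gene that encodes a zinc finger protein and is expressed from the paternal copy. Its brighter probe set read 552, 594 and 548 with gedunin and 816 and 804 on DMSO 1 and 2, with a clear gap between the groups. It fell by 0.52 ± 0.09 (limma adjusted p = 0.00285). The second probe set read 297, 287 and 368 with gedunin against 314 and 404 on DMSO 1 and 2. There the groups overlapped and the difference was -0.18 ± 0.14 (limma adjusted p = 0.477). The difference between the 2 probe sets' changes was -0.34, with an exact two-sided permutation p of 0.3 (adjusted p = 0.3 over 3 pairs). On DMSO 3 the 2 probe sets read 19.8 and 34.3.

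Of the inhibitors, CAMK2N1 fell and SERPINI1 was not called. CAMK2N1, a protein that inhibits calcium/calmodulin-dependent kinase II, was brightly lit at 2116, 2151 and 2014 with gedunin, against 2697 and 2891 on DMSO 1 and 2. The groups were apart and the spread within each was small. Its fall of 0.42 ± 0.09 (limma adjusted p = 0.0104) was the smallest among the called members. Without DMSO 2 it was -0.37 and no longer called (limma adjusted p = 0.101). DMSO 3, at 25.1, gave 0.898% of the level on DMSO 1 and 2.

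SERPINI1 encodes neuroserpin, a secreted inhibitor of tissue plasminogen activator. It read 125, 130 and 130 with gedunin, against 118 and 140 on DMSO 1 and 2, so that the gedunin arrays lay between the DMSO arrays. The difference was -0.00067 ± 0.099, with a 95% interval of -0.22 to 0.22. DMSO 3 read 26.0.

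Of the enzymes outside the UGT family, BCHE fell while DDC fell short of a call. BCHE, the cholinesterase of blood plasma that also splits many drug esters, read 136, 120 and 131 with gedunin against 206 and 204 on DMSO 1 and 2. The DMSO arrays nearly coincided and all gedunin arrays lay well below them. It fell by 0.67 ± 0.09 (limma adjusted p = 0.000850), to 62.9% of the DMSO level. DMSO 3 read 14.96. BCHE and SERPINI1 lie on the same chromosome, 3, but are not next to each other, and the difference between their changes was -0.67. Its exact two-sided permutation p of 0.1 is the smallest that 3 arrays against 2 allow (adjusted p = 0.15 over 3 pairs).

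DDC encodes aromatic L-amino acid decarboxylase, which makes dopamine and serotonin and has been described as a coactivator of the androgen receptor. Its bright probe set read 3412, 3324 and 3311 with gedunin, against 3791 and 4148 on DMSO 1 and 2. The groups did not overlap, as held for 8 of the 17 member probe sets and for 23.5% of all probe sets in that direction. The difference of -0.24 ± 0.09 had an unadjusted p of 0.0201 and was not called (limma adjusted p = 0.100). DDC was called lower under 4 of the 16 alternatives on these 5 arrays or 4 of them. These were a second quantile normalization, centring on GAPDH and ACTB, a variance trend with robust fitting, and an added offset of 16. They gave limma adjusted p-values of 0.0406, 0.00853, 0.00421 and 0.0331. Centring on GAPDH and ACTB also called 25.8% of all genes lower. The other 12 alternatives did not call DDC, and with 1 array left out its difference ranged from -0.31 to -0.18. The second probe set of DDC was dim, at 15.1 to 15.3 with gedunin and 15.2 to 16.6 on DMSO 1 and 2. On DMSO 3 the bright one read 43.6.

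**Figure D2:**
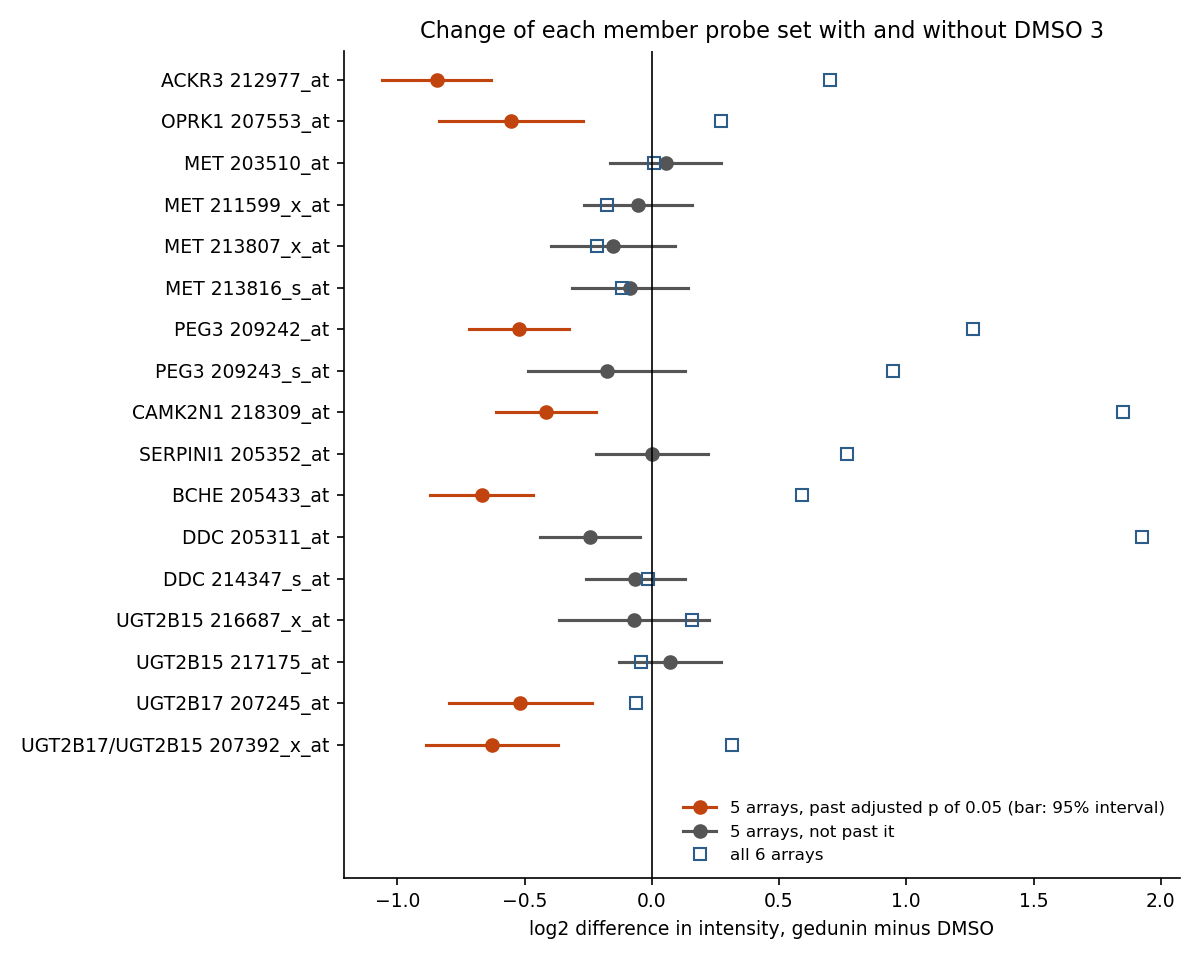
Log2 difference in intensity, gedunin minus DMSO, for the 17 probe sets of the members. Circles with bars are the 5-array values with 95% intervals, red where adjusted p is under 0.05, and open squares are the values with all 6 arrays. The 7 red circles lie between -0.85 and -0.42, and 6 of those 7 probe sets have open squares above 0.

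UGT2B17 and UGT2B15 are neighbouring genes on chromosome 4 whose near-identical products conjugate dihydrotestosterone and its metabolites. Their probe sets may share signal. The probe set naming UGT2B17 alone read 365, 323 and 431 with gedunin against 564 and 497 on DMSO 1 and 2. The groups were apart, though the gedunin arrays differed among themselves more than for most other called members. UGT2B17 fell by 0.52 ± 0.13 (limma adjusted p = 0.0208). This was the least secure call of the 6, since it was lost when gedunin 1, gedunin 2, DMSO 1 or DMSO 2 was left out. The differences were then -0.51, -0.42, -0.43 and -0.61, with limma adjusted p-values of 0.0589, 0.0528, 0.184 and 0.0646.

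The probe set that names both genes read 268, 237 and 273 with gedunin and 358 and 447 on DMSO 1 and 2. It fell by 0.63 ± 0.12 (limma adjusted p = 0.00493), and its call was lost without DMSO 2 (-0.47, limma adjusted p = 0.0667). UGT2B15's own brighter probe set read 61.4, 60.5 and 79.5 with gedunin against 64.8 and 75.4 on DMSO 1 and 2, so the groups overlapped. Its difference was -0.070 ± 0.13 (limma adjusted p = 0.796), with a 95% interval of -0.36 to 0.22. The other UGT2B15 probe set was dim, at 18.5 to 20.8 with gedunin and 18.5 to 18.9 on DMSO 1 and 2.

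The difference between the changes of UGT2B17 and UGT2B15 was -0.45, with an exact two-sided permutation p of 0.1, the smallest possible here (adjusted p = 0.15 over 3 pairs). On DMSO 3 UGT2B17 read 207, or 39.1% of its level on DMSO 1 and 2. The shared probe set read 56.3 there and UGT2B15 43.6. UGT2B17 was thus the called member least reduced on DMSO 3. For the other 5 called genes DMSO 3 lay at least 4-fold below DMSO 1 and 2.

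With all 6 arrays, DMSO 3 lowered the DMSO mean and turned most of these differences round. In that fit 0 of the 17 member probe sets and 0 of the 10 genes were called by limma, and 0 had an unadjusted p under 0.05, while 0.270% of all probe sets were called lower and 1.13% higher. Over genes these shares were 0.362% and 1.31%. The 6-array differences were 0.70 ± 1.31 for ACKR3, 0.59 ± 1.07 for BCHE, 0.27 ± 0.71 for OPRK1 and 1.26 ± 1.51 for the brighter PEG3 probe set. They were 1.85 ± 1.92 for CAMK2N1, 1.93 ± 1.84 for DDC, 0.77 ± 0.66 for SERPINI1 and -0.064 ± 0.40 for UGT2B17. Each error was larger than, or close to, the difference itself. The median over the 10 genes was 0.64, against -0.0090 over all genes. The falls described above therefore rest on setting DMSO 3 apart.

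**Figure D3:**
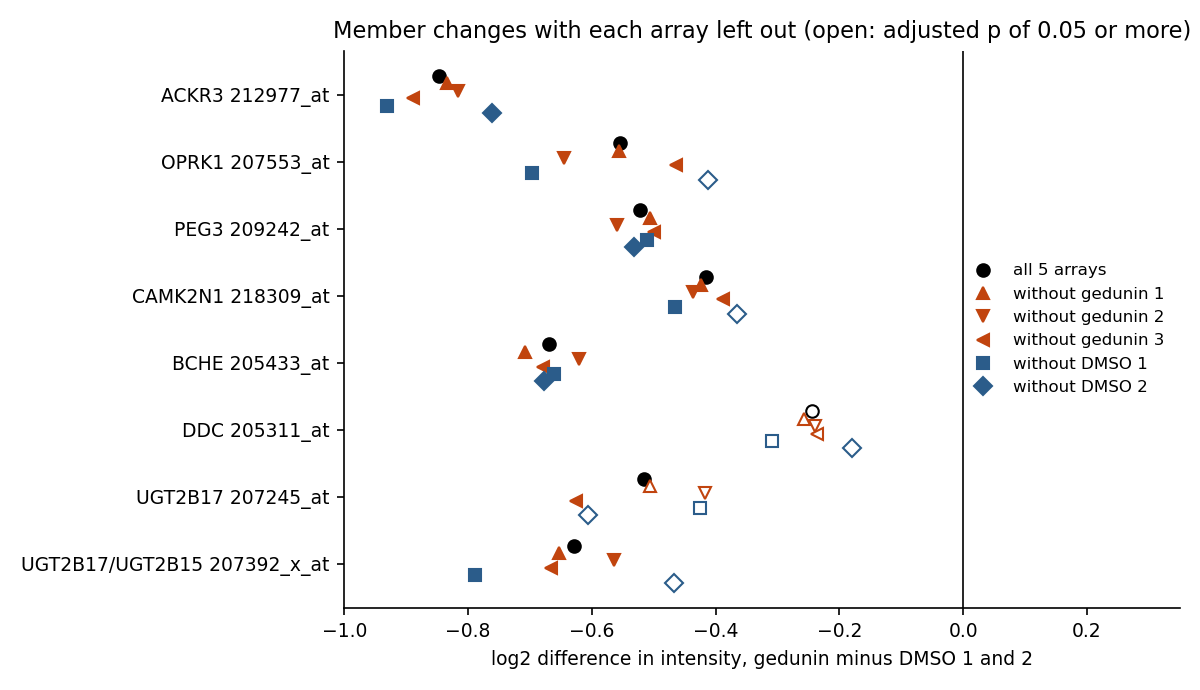
Log2 differences, gedunin minus DMSO 1 and 2, for the 7 called member probe sets and DDC with all 5 arrays (black) and with each array left out. Filled symbols have an adjusted p under 0.05. ACKR3, BCHE and PEG3 stay filled throughout, while OPRK1, CAMK2N1 and the shared UGT2B probe set open without DMSO 2, and UGT2B17 opens in 4 of the 5 fits.

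Leaving out each of the 5 arrays in turn left 3 to 6 of the 10 genes called lower. ACKR3 ranged from -0.93 to -0.76, BCHE from -0.71 to -0.62 and PEG3 from -0.56 to -0.50, and these 3 genes were called in each of the 5 fits. The lowest count came without DMSO 2, when ACKR3, BCHE and PEG3 were the genes called. With an adjusted p under 0.01 the count was likewise 3.

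Other genes listed by name as lowered by androgen did not share one direction. Of 17 measured genes on a separate list, 3 fell and 2 rose, with a median of 0.026. CLU, the secreted chaperone clusterin, rose by 2.02 ± 0.14 (limma adjusted p = 9.63e-06), with 436, 624 and 473 under gedunin against 121 and 128 on DMSO 1 and 2. AKR1C3, an enzyme that makes testosterone from weaker precursors, rose by 1.15 ± 0.12, with 44.8, 55.8 and 55.9 under gedunin against 25.7 and 21.4. Both of these DMSO readings, and 24.1 on DMSO 3, lay below the array medians, where folds are compressed. CCND1, the G1 cyclin D1, fell by 0.91 ± 0.13 (limma adjusted p = 0.00125), and MYC, a growth-promoting transcription factor, by 0.87 ± 0.11. FOLH1, prostate-specific membrane antigen, had -0.26 ± 0.09 (limma adjusted p = 0.0673) and was not called. AKR1C3 and MYC were also called with all 6 arrays, in the same direction. DMSO 3, which lacked the prostate markers, lay at 103% and 109% of DMSO 1 and 2 for them, so that fit is no separate check.

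Genes listed by name as raised by androgen were mixed too. Of 26 measured, 5 fell and 3 rose, with a median of -0.079. C1orf116 had the largest change of the list (-2.01 ± 0.11), followed among those that fell by the epithelial transcription factor SPDEF (-0.89 ± 0.11) and the serine protease TMPRSS2 (-0.70 ± 0.10). TSC22D3, a leucine zipper gene that glucocorticoids raise as well, rose by 1.99 ± 0.08. KLK3, prostate-specific antigen, had -0.14 ± 0.10 and FKBP5, a cochaperone, -0.21 ± 0.17, neither called (limma adjusted p = 0.425 and 0.514). The members thus had a lower median, -0.47, than either list, and no test of that difference was made. Members and lists were both chosen with earlier results of these data known, so the order of the medians is description alone.

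**Figure D4:**
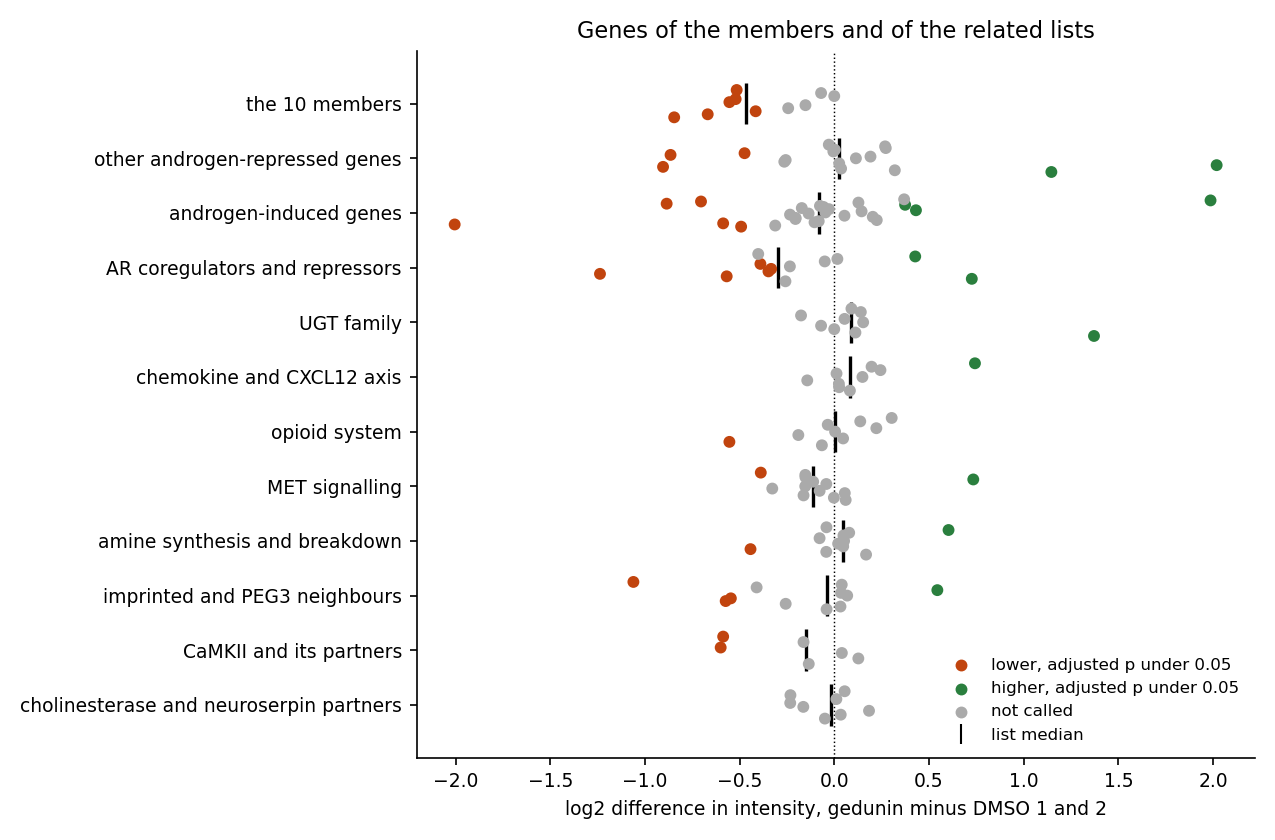
Log2 difference, gedunin minus DMSO 1 and 2, for each measured gene of the members and of 11 related lists, 1 point per gene, coloured by call, with list medians as black bars. The members' median of -0.47 lies left of those of the other lists, of which the androgen receptor coregulators come nearest at -0.30. Members and lists were chosen with earlier results of these data known.

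Among proteins that act with the androgen receptor, 5 of 12 measured fell and 2 rose, with a median of -0.30. GATA2, a factor that helps open androgen-responsive sites, fell by 1.24 ± 0.10 (limma adjusted p = 3.18e-05), reading 171 to 191 with gedunin against 388 and 456. The pioneer factor FOXA1 fell by 0.57 ± 0.11 (limma adjusted p = 0.00575). EZH2, the catalytic subunit of a repressive histone methyltransferase complex, rose by 0.73 ± 0.10 on 1 of its 2 probe sets, and the coactivator NCOA2 rose by 0.43 ± 0.10. Without DMSO 1 or without DMSO 2, 2 of the 12 were called lower, and without gedunin 1 or gedunin 3 the count was 3. FOXA1 lost its call without DMSO 2 (limma adjusted p = 0.0614). NCOA2 lost its call without gedunin 1, gedunin 2 or DMSO 1 (0.0592, 0.0536 and 0.179), which left 1 gene called higher. The androgen receptor gene itself was not analysed here.

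Over 8 lists of genes that work with the members or lie near them, 12 of 75 genes besides the members were called, 7 lower and 5 higher. That is 16%, near the 17.6% of all genes called in either direction. In the UGT family, 1 of 9 measured genes was called: UGDH, the enzyme that makes the glucuronic acid donor used by UGT2B17, rose by 1.37 ± 0.11 (limma adjusted p = 2.49e-05), and with all 6 arrays by 1.33. It read 499, 400 and 452 with gedunin against 166 and 181 on DMSO 1 and 2. UGT2B17 and UGDH were thus called in opposite directions. In the CXCL12 axis, 1 of 9 was called, the receptor kinase GRK2 (0.74 ± 0.13), on 1 of its 3 probe sets, while the ligand CXCL12 read 18.1 to 23.2 over the 6 arrays and was not called.

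In the opioid system, OPRK1 was the 1 gene called among 9. Of 13 genes of MET signalling, SOS1, an activator of RAS, rose (0.73 ± 0.13) and ST14, a protease that activates the MET ligand, fell (-0.39 ± 0.09). SOS1 was not called without DMSO 1 (limma adjusted p = 0.0514), nor ST14 without DMSO 1 (0.0594), DMSO 2 (0.162) or gedunin 1 (0.0607). In amine metabolism, MAOA, which breaks down serotonin and noradrenaline, fell by 0.44 ± 0.09 and SPR, which makes a cofactor of amine synthesis, rose by 0.60 ± 0.12, out of 11. MAOA read 1976, 1786 and 1876 with gedunin against 2584 and 2522 on DMSO 1 and 2. Both calls were lost without DMSO 1 (limma adjusted p = 0.0707 for MAOA and 0.0962 for SPR) and without DMSO 2 (0.0530 and 0.0506).

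Among imprinted genes and partners or neighbours of PEG3, 3 of 11 fell and 1 rose. The imprinted genes MEST (-0.57 ± 0.11) and NDN (-0.55 ± 0.11) fell, and so did the zinc finger gene ZNF264 (-1.06 ± 0.19). SIAH1, a ubiquitin ligase that binds PEG3, rose by 0.54 ± 0.11. Without DMSO 1 the 3 falls were no longer called (limma adjusted p = 0.0737 for MEST, 0.0785 for NDN and 0.0713 for ZNF264). Without DMSO 2 those of NDN (0.0542) and SIAH1 (0.0864) were lost. Of 6 genes around calcium/calmodulin-dependent kinase II, the target family of CAMK2N1, CAMK2G (-0.60 ± 0.10) and the upstream kinase CAMKK2 (-0.59 ± 0.09) fell. Of 8 partners of BCHE and SERPINI1, 0 were called by limma, with 1 lower and 0 higher at an unadjusted p under 0.05 (PLAU, the urokinase plasminogen activator, at -0.23). Of the named genes with several probe sets, TMPRSS2, GRK2, SOS1, ST14, CAMK2G and EZH2 were called on their brightest alone, and no other probe set was called the opposite way. With all 6 arrays, the 11 lists together held 1 gene called lower and 3 higher besides the members, against 19 and 12 with 5 arrays.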

How the data were processed

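The deposited table holds 1 intensity per probe set and array, made by the authors with RMA, a method of background correction, quantile normalization and probe set summary, per the submitters' processing notes, with no version given. The values were on a linear scale, so log2 was taken. Which arrays were normalized together and how well probes exceeded background are not given in the sources used here. Probe sets were joined to genes by the 2016 platform annotation: of 22215, 19724 named 1 gene, 568 several, and 1923 were not listed. Of the identifiers, 19707 matched RefSeq, and 0 symbols changed. A gene was represented by its brightest probe set over the 5 arrays.

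Gedunin 1 to 3 and DMSO 1 and 2 were fitted over all probe sets with limma 3.58.1 in R 4.3.3 (lmFit, eBayes), and the Benjamini-Hochberg threshold was 0.05. The code was tested on simulated data. Differences between the changes of 2 probe sets were tested by exact permutation over arrays. Alternatives covered the arrays included, a replicate block, a filter on dim probe sets, centring, normalization, the variance model, an offset, the threshold and the choice of probe sets. The number of arrays limits the precision.

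The members and lists were chosen with earlier results of these data known. All member probe sets are given. From each list up to 4 called genes with the largest change are named, with AKR1C3, FOLH1, MYC, KLK3 and FKBP5 whatever their result. CXCL12, PLAU and the promoters shown were added after their values were seen.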

Additional observations from a re-analysis of the deposited data

Results flagged for a closer look

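The array labelled DMSO 3, which entered no main comparison, carried leukocyte signal at least 8-fold above every other array. CD74 read 4294, HLA-DRA 4195, MS4A1 2138, CD79A 515, PTPRC 435 and CD79B 200.3 on it. These were 6 of 10 measured leukocyte markers. The others, CD3D, CD3E, CD2 and CD14, read 20.9, 19.3, 28.4 and 18.8 on DMSO 3, below its median. No member probe set was 2-fold above DMSO 1 and 2 on that array. The part of the leukocyte markers in the 6-array differences was not tested.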

How the results depend on the processing

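With all 6 arrays, 0 member probe sets and 0 member genes were called lower, the median over the 10 genes was 0.64, and the related lists held 1 gene lower and 3 higher. Differences that changed sign there were ACKR3 0.70, BCHE 0.59, OPRK1 0.27, CAMK2N1 1.85, DDC 1.93, SERPINI1 0.77, PEG3 1.26 and 0.95, the shared UGT2B probe set 0.31, and UGT2B15 0.16 and -0.041. A replicate block on 6 arrays gave the same differences and 0 called members, with 0 and 0 genes of the lists. Same-numbered arrays did not deviate together (correlations of -0.033 and 0.039 on 5 arrays), so the numbers were not taken to pair them. On 5 arrays, the replicate block gave a median of -0.43 and 3 androgen receptor coregulators lower in place of 5. It left 6 member genes and 7 probe sets called lower, and turned the second brightest MET probe set to -0.012. Gedunin 3 was alone in its block there, so that fit gave the same differences as leaving out gedunin 3. Leaving out 1 array gave 3 to 7 probe sets, 3 to 6 genes, medians of -0.46 to -0.39, and 11 to 19 list genes lower. In these fits SERPINI1 ranged from -0.12 to 0.12, that MET probe set from -0.012 to 0.10, the third brightest from -0.094 to 0.011, the dimmer PEG3 probe set from -0.36 to 0.0042 and the brighter UGT2B15 probe set from -0.20 to 0.038. An adjusted p under 0.01 left 4 probe sets and 3 genes. The median was -0.52 without dim probe sets, -0.51 after a second quantile normalization, -0.64 with centring on GAPDH and ACTB and -0.38 with gene means. Centring on GAPDH and ACTB moved the median of all genes to -0.19, called 35 list genes lower, and gave the second brightest MET probe set -0.12 and the dimmer UGT2B15 probe set -0.099. SERPINI1 was 0.020 centred on the array median and 0.017 after quantile normalization, and UGT2B15 was 0.00057 with gene means. The cause of these shifts was not tested. ACKR3, BCHE and PEG3 remained called lower in the 16 alternatives on these 5 arrays or 4 of them. Of these alternatives, the replicate block and the fit without gedunin 3 gave the same differences. PEG3 was read in the 16 alternatives by its brighter probe set, except with gene means, where both of its probe sets were averaged.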
